A study of Mus musculus with 6 samples.

Results

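Osteoclasts dissolve bone mineral by pumping acid across a folded membrane, the ruffled border, that faces the bone. The genes described here supply and balance that acid outside the proton pump itself: Car2, Slc4a2, Clcn7, Ostm1, Plekhm1 and Ckb. They were chosen by gene symbol, as all probe sets of the array paired with 1 of these symbols alone, and they gave 9 probe sets for 6 genes, of 18193 genes measured. Expression was measured in knockin (KI) and wild-type (WT) mouse bone marrow macrophages, 3 arrays each, all from C57BL/6 animals per the labels. Both groups had received M-CSF at 44 ng/ml, which keeps macrophages alive and dividing, and RANKL at 100 ng/ml, the cytokine that turns them into osteoclasts, for 24 hours. The series title names the IVVY motif of RANK, the RANKL receptor, and asks which genes it regulates; the labels call the mice a knockin mutant and do not describe the altered residues. Nothing in the labels says whether arrays of a group came from separate animals or cultures, so the p-values measure only the spread between these arrays, which may be technical.

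As background, carbonic anhydrase II, the product of Car2, hydrates carbon dioxide to protons and bicarbonate inside the cell. The proton pump (V-ATPase) moves the protons out through the ruffled border, the chloride-proton exchanger encoded by Clcn7 with its partner subunit Ostm1 carries the accompanying chloride, and the anion exchanger AE2, encoded by Slc4a2, returns bicarbonate to the blood side in exchange for chloride. Plekhm1 is an adaptor of lysosome traffic bound by the GTPase Rab7, and the brain-type creatine kinase encoded by Ckb regenerates ATP near the pump. Loss of carbonic anhydrase II, CLC-7, OSTM1 or PLEKHM1 in humans, and of AE2 in mice and cattle, causes dense bone that osteoclasts fail to resorb.

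The 6 genes did not move in 1 direction in KI cells. By their brightest probe sets Car2 and Slc4a2 fell, Plekhm1 and Ostm1 rose in the values as deposited, and Clcn7 and Ckb did not pass the test. Neither rise passed when arrays were scaled to the older probe sets for added control RNAs, and Ostm1 then turned to -0.11. Differences are log2 KI minus WT with the standard error (SE) and adjusted p of limma, a linear model fitted to all 22518 tested probe sets, and 0.05 was the threshold. All 9 member probe sets passed the filter on low values, and 2 were higher and 3 lower, where 44.9% of all tested probe sets passed the threshold (19.3% higher and 25.6% lower). KI and WT arrays did not overlap for 5 of the 9, against 60.9% of all tested probe sets. In number, then, the members were called about as often as other probe sets. Their median difference was -0.17 and that of all tested probe sets -0.04.

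**Figure D1:**
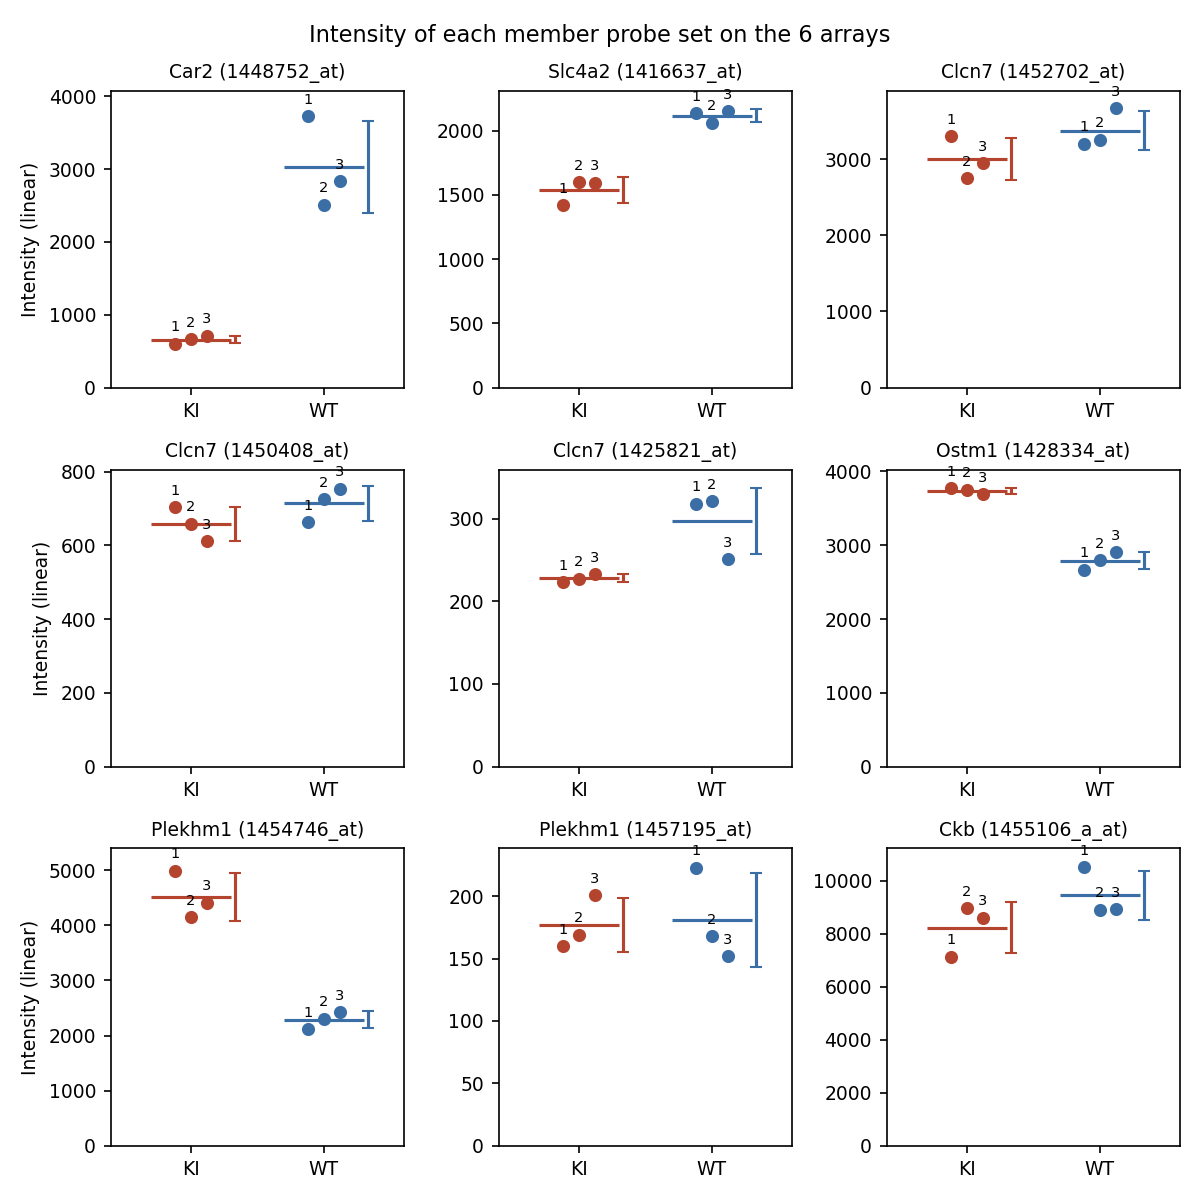
Intensity (linear scale) of each of the 9 member probe sets on the KI arrays (left, red) and the WT arrays (right, blue); numbers are the replicate numbers, lines the means and bars the SD (n = 3 each). KI arrays lie below WT arrays for Car2, Slc4a2 and the dimmest Clcn7 probe set and above them for Ostm1 and the brighter Plekhm1 probe set.

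Car2 had the largest difference of the 6 genes. Its single probe set (1448752_at) had intensities of 606, 667 and 710 on KI arrays 1, 2 and 3, against 3729, 2512 and 2832 on WT arrays 1, 2 and 3. Every KI array lay far below every WT array, and WT 1 was the highest of the WT arrays. Car2 was 4.52-fold lower in KI cells (log2 difference -2.18, SE 0.15, adjusted p = 0.00033 by limma), and 0.169% of tested probe sets had a more negative difference. With WT 1 left out the difference was -2.02. Arrays of mixed cultures cannot tell fewer cells expressing a gene from less RNA per cell.

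Car2 is also abundant in red blood cells, and markers of that lineage were near background. Of 6 erythroid marker genes measured, 0 passed the threshold in the fit of genes, in which each gene is taken by its brightest probe set and 26.8% of 18193 genes passed at an adjusted p under 0.05; in the same limma fit 1 had an unadjusted p under 0.05. Their summed intensity ranged from 320 to 334 on KI arrays and from 295 to 309 on WT arrays. Of 10 osteoclast markers 7 fell and 3 did not pass, and their summed intensity ranged from 32701 to 36537 on KI arrays and from 70544 to 81134 on WT arrays. The log2 differences of the 7 were -2.89 for Mmp9, a larger fall than that of Car2, and from -1.57 for Ocstamp to -0.70 for Ctsk for the other 6, among them Dcstamp (-1.21), Nfatc1, Atp6v0d2 (-0.97) and Acp5 (-0.92). With any 1 array left out, 6 to 7 osteoclast markers fell, and 2 fell in a fit blocked by replicate number. Of 9 macrophage markers 7 rose and 2 did not pass. Their summed intensities were 143503 to 150530 on KI arrays and 91863 to 113273 on WT arrays. The number that rose was 1 without any of KI 1, KI 2 or KI 3 and 1 in a fit blocked by replicate number. With arrays scaled to added control RNAs it was 5 by their newer probe sets (spike-in scaling) and 4 by their older ones (older-probe scaling). Of 7 neutrophil markers 1 rose, S100a8 (0.84, adjusted p = 0.046 by limma), and 6 did not pass, while 5 had an unadjusted p under 0.05. Spike-in scaling gave 5 rises, and 4 rose without KI 2. The count was 0 when any 1 of KI 1, KI 3, WT 1, WT 2 or WT 3 was left out. It was also 0 in the fit blocked by replicate number. Under older-probe scaling 0 of the 7 neutrophil markers rose and 1 fell. Their median difference was 0.84, and their summed intensity ranged from 21993 to 43495 on KI arrays and from 15715 to 19724 on WT arrays, without overlap. The part of these shifts in the differences of the 6 genes was not tested.

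Slc4a2 fell with Car2, by less. Its probe set (1416637_at) had intensities of 1421, 1599 and 1597 on KI arrays 1, 2 and 3, against 2138, 2061 and 2152 on WT arrays 1, 2 and 3. The arrays of each genotype lay close together and the groups did not overlap. The gene was 1.38-fold lower in KI cells (log2 difference -0.46, SE 0.08, adjusted p = 0.0043 by limma). The falls of Car2 and Slc4a2 passed the threshold under all 21 alternatives run for each, with differences of -2.71 to -1.92 for Car2 and -0.99 to -0.40 for Slc4a2. RefSeq (GRCm38.p6) gave 2 start sites for Slc4a2, and the window of the upstream one is shown because it is the richest of the members in the NFAT core motif GGAAA, the letters read by NFAT factors such as the osteoclast regulator NFATc1. It runs from 250 bases before to 50 bases after the start, at chr5:24424982-24425281 on the + strand, with capitals marking GGAAA, which appears there as its reverse complement.
Slc4a2: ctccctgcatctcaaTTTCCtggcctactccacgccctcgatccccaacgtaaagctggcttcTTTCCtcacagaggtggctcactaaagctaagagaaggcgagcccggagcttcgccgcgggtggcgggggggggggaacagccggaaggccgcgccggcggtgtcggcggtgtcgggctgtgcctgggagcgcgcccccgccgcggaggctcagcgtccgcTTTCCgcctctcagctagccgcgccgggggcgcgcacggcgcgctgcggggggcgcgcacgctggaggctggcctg
The window held 3 matches, at 235, 187 and 26 bases before the start, given as -235, -187 and -26. The window of the downstream Slc4a2 start held 0. The motif is short, and 61.3% of all 32851 promoter windows hold it on either strand. Of the 7 windows found for the members, 3 hold it.

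Clcn7 and Ostm1 encode the 2 subunits of 1 transporter, and their transcripts did not move together. Ostm1 (1428334_at) had intensities of 3771, 3749 and 3690 on KI arrays 1, 2 and 3, against 2671, 2798 and 2906 on WT arrays 1, 2 and 3. All KI arrays lay above all WT arrays, and the KI arrays differed little among themselves. The gene was 1.34-fold higher in KI cells (log2 difference 0.42, SE 0.06, adjusted p = 0.0028 by limma).

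Clcn7 had 3 probe sets, and all of them had negative differences. The brightest (1452702_at) had intensities of 3297, 2749 and 2944 on KI arrays 1, 2 and 3, against 3204, 3253 and 3667 on WT arrays 1, 2 and 3, so the groups overlapped (log2 difference -0.17, 95% interval -0.39 to 0.05, adjusted p = 0.17 by limma). The next (1450408_at) had intensities of 704, 659 and 612 on KI arrays, against 663, 725 and 754 on WT arrays, and also overlapped (-0.12, 95% interval -0.34 to 0.10, adjusted p = 0.33 by limma). The dimmest (1425821_at) had intensities of 223.4, 227.4 and 233.3 on KI arrays, against 318.2, 321.2 and 251.1 on WT arrays, without overlap. With a difference of -0.37 and an SE of 0.11 it passed the threshold in the limma fit (adjusted p = 0.035), but not without any of WT 1 (0.076), WT 2 (0.11), KI 1 (0.089), KI 2 (0.083) or KI 3 (0.087), each an adjusted p of limma. With 1 mean for the 3 probe sets the gene differed by -0.22 (adjusted p = 0.028 by limma). The probe sets did not differ detectably from each other in their KI against WT difference: the brightest minus the dimmest gave 0.20 (exact two-sided permutation p = 0.3) and minus the other -0.05 (exact p = 0.5), where 0.1 is the smallest p that 3 against 3 arrays allow.

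The ratio of Ostm1 to Clcn7 on the same array does not depend on scaling that shifts all probe sets of an array alike. Its log2 value from the brightest probe sets was 0.19, 0.45 and 0.33 on KI arrays 1, 2 and 3, against -0.26, -0.22 and -0.34 on WT arrays 1, 2 and 3. The KI arrays were all above the WT arrays, with a mean difference of 0.59 (exact two-sided permutation p = 0.1, the smallest possible, and 0.11 adjusted over 15 pairs of members). KI and WT arrays did not overlap for 14 of the 15 pairs, which reuse the same 6 probe sets. The gap between the groups was only 0.01 for Clcn7 to Slc4a2 and 0.03 for Ckb to Slc4a2. The share over other pairs of genes was not computed, and 60.9% of all tested probe sets, taken singly, did not overlap. Each ratio was taken in the direction with the higher KI mean. The start-site windows of the 2 genes are shown because the GC-rich one of Ostm1 and the upstream one of Clcn7 share none of the motifs marked in capitals: CACGTG, the E-box read by the lysosomal regulators TFEB and TFE3 and by MITF, GGAAA as above, and the GC box GGGCGG. They lie at chr17:25133141-25133440 (Clcn7) and chr10:42678666-42678965 (Ostm1), both on the + strand of GRCm38.p6, from RefSeq.
Clcn7: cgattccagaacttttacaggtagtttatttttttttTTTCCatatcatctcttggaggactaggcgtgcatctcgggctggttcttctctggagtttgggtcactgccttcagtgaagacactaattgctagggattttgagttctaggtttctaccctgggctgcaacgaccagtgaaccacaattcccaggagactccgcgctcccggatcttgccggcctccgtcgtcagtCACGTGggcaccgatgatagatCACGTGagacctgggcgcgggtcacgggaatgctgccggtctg
Ostm1: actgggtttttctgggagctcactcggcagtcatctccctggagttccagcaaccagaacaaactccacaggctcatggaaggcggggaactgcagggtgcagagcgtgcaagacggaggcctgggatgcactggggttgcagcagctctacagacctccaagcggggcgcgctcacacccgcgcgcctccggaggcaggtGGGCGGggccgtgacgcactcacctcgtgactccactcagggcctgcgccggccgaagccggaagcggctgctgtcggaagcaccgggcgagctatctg
Clcn7 held CACGTG at 2 places, starting at base -15 and at base 8 after the start, and 7.15% of all windows hold it. It was the only member window of 7 with that motif. The GC box in Ostm1 starts at base -49, and 35.7% of all windows hold a GC box.

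**Figure D2:**
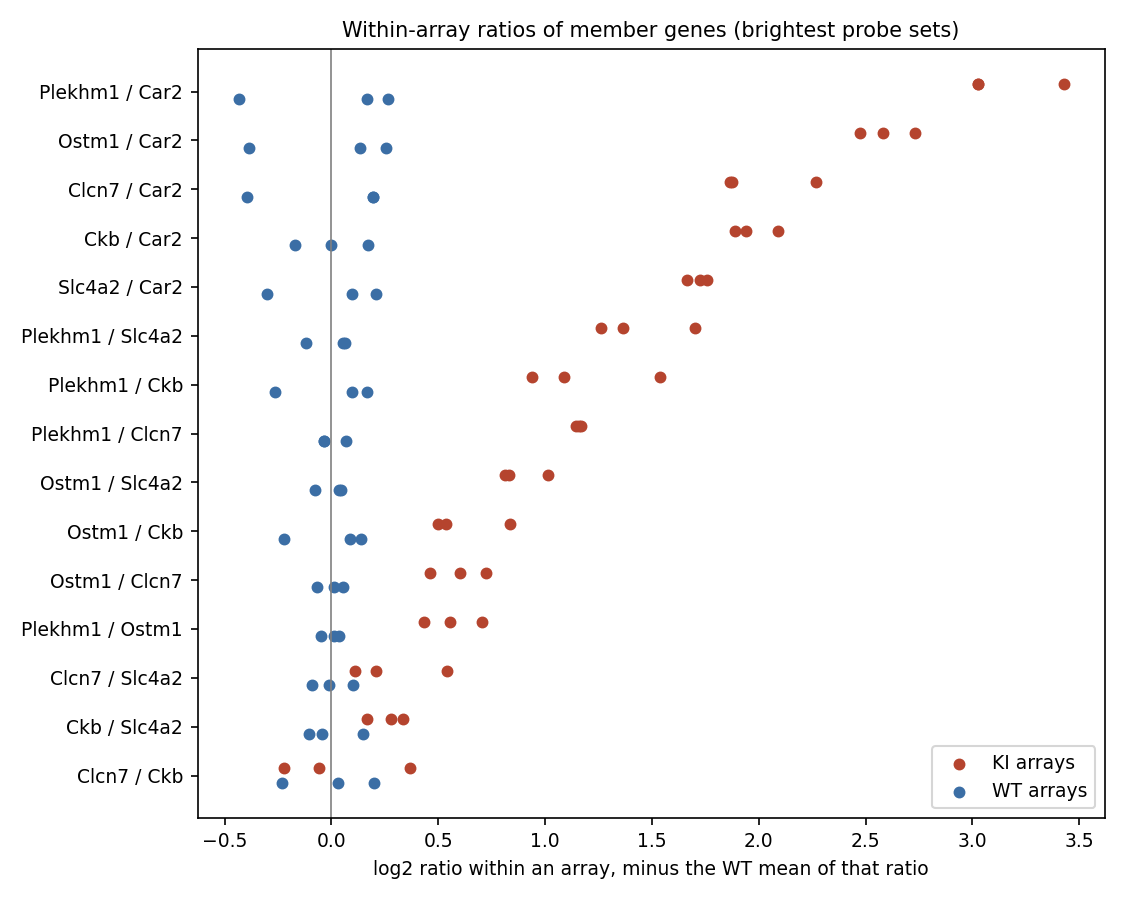
Within-array log2 ratio of each pair of members (brightest probe sets), with the WT mean of that ratio subtracted; each point is 1 array, red KI above blue WT in each row. The Ostm1 to Clcn7 ratio is higher on all KI arrays by a mean of 0.59, and the Plekhm1 to Car2 ratio at the top by 3.16.

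Plekhm1 rose by the largest amount of the 6 genes, on 1 of its 2 probe sets. The brighter probe set (1454746_at) had intensities of 4996, 4145 and 4416 on KI arrays 1, 2 and 3, against 2117, 2307 and 2427 on WT arrays 1, 2 and 3. The lowest KI array was well above the highest WT array. The gene was 1.98-fold higher in KI cells by this probe set (log2 difference 0.98, SE 0.09, adjusted p = 0.00079 by limma), and 4.45% of tested probe sets had a larger positive difference. The dimmer probe set (1457195_at) had intensities of 160, 169 and 201 on KI arrays, against 223, 168 and 152 on WT arrays, which overlapped (log2 difference -0.02, 95% interval -0.41 to 0.37, adjusted p = 0.93 by limma). The difference between the 2 estimates was 1.00, with every KI array above every WT array (exact two-sided permutation p = 0.1; 0.3 adjusted over 3 pairs of probe sets). Which transcripts the 2 probe sets match was not analysed here. With 1 mean for both, Plekhm1 differed by 0.48 (adjusted p = 0.0043 by limma).

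The Plekhm1 window is shown beside that of Ostm1, the other member that rose, since both hold the GC box. That motif was in 2 of the 7 member windows and in 35.7% of all windows. Neither holds the E-box, the NFAT core or the AP-1 motif TGANTCA, and nor do the downstream windows of Clcn7 and Slc4a2. Whether any promoter motif bears on the differences between KI and WT was not tested. The Plekhm1 window lies at chr11:103412656-103412955 on the - strand of GRCm38.p6, from RefSeq, and capitals mark GGGCGG on either strand.
Plekhm1: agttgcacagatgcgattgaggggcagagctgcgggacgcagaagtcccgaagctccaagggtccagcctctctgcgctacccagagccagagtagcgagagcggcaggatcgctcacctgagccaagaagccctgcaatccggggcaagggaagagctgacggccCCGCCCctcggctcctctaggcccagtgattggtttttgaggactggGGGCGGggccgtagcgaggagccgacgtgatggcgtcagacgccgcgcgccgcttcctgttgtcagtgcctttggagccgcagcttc
The 2 GC boxes start at bases -84 and -37. TGANTCA was in none of the 7 member windows and in 7.81% of all windows, and the NF-kB form, GGG and CC with 5 bases between them, was in 5 of the 7 and in 50.8% of all; some of its matches overlap a GC box. TCATGTG, another form read by MITF, was in 1 member window, the downstream one of Clcn7, and in 3.77% of all, the PU.1 core GAGGAA in 1 and 28.3%, where it overlaps GGAAA in Slc4a2, and the TATA box TATAAA in 1, that of Ckb, and 13.6%. Windows were found for 5 of the 6 genes.

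Ckb (1455106_a_at) had intensities of 7119, 8958 and 8589 on KI arrays 1, 2 and 3, against 10504, 8901 and 8920 on WT arrays 1, 2 and 3. KI 1 was the lowest and WT 1 the highest, and the other arrays were nearly level. The log2 difference was -0.20 (95% interval -0.45 to 0.05, adjusted p = 0.16 by limma), and without WT 1 and KI 1 it was -0.02 (adjusted p = 0.69 by limma).

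Directions depended in part on the scaling between arrays. Bacterial and phage control RNAs added to each hybridisation had a mean log2 intensity of 11.35 to 11.51 on KI arrays and 11.14 to 11.28 on WT arrays, and older probe sets for the same controls had 10.93 to 11.09 on KI arrays and 10.24 to 10.84 on WT arrays. Scaling to the first (spike-in scaling) moved the median of all tested probe sets to -0.25, and scaling to the second (older-probe scaling) moved it to -0.57. All 4 genes that changed as deposited kept their place relative to that median, since the shift is the same for every probe set: -2.14 for Car2, -0.42 for Slc4a2, 0.46 for Ostm1 and 1.02 for Plekhm1. Measured from 0, Ostm1 differed by 0.22 (adjusted p = 0.065 by limma) under spike-in scaling and by -0.11 (adjusted p = 0.73) under older-probe scaling. Plekhm1 differed by 0.78 (adjusted p = 0.00087 by limma) and 0.45 (adjusted p = 0.13). The brightest Clcn7 probe set passed under both, at -0.38 (adjusted p = 0.011 by limma) and -0.70 (adjusted p = 0.021). Ckb passed under the older one, at -0.73 (adjusted p = 0.010 by limma). Relative to the median of all tested probe sets, Clcn7 stayed at -0.13 and Ckb at -0.16, as in the values as deposited.

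**Figure D3:**
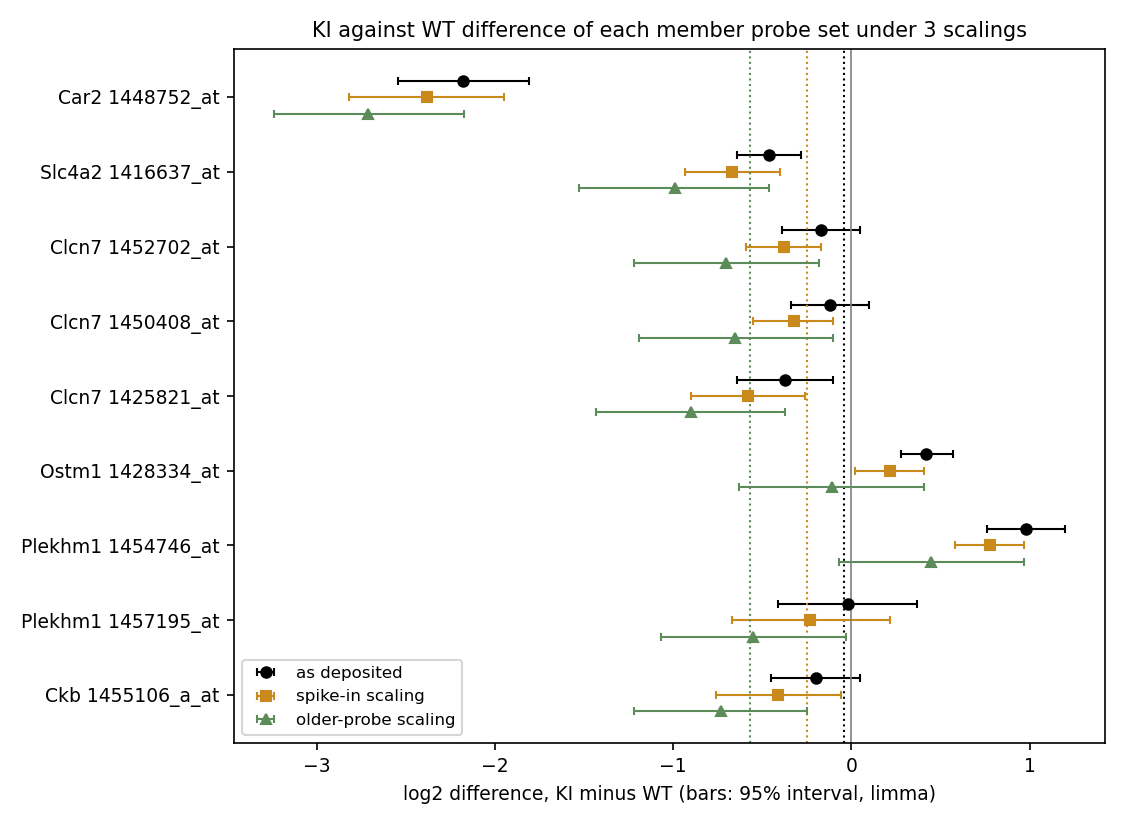
Log2 difference, KI minus WT, of each member probe set with its 95% interval, as deposited (black), under spike-in scaling (orange) and under older-probe scaling (green); dotted lines are the medians of all tested probe sets (-0.04, -0.25 and -0.57). Car2 and Slc4a2 lie below 0 under all 3, and Ostm1 lies at 0.42, 0.22 and -0.11.

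The wider gene groups around the members were described in the fit of genes, where 11.9% of genes were higher, 14.9% lower and the median difference was 0.00. Of 15 other carbonic anhydrases measured, 10 of them below the level of the filter, 1 fell and 1 rose as deposited, with a median difference of -0.07, while 3 fell under spike-in scaling and 10 under older-probe scaling. The mitochondrial Car5b averaged 174 ± 11.0 in KI and 261 ± 16.8 in WT cells (SD, n = 3 each), a log2 difference of -0.59 (adjusted p = 0.0083 by limma), and Car15 had a difference of 0.44 (adjusted p = 0.014), whose call ended without KI 3 and under either spike-in scaling.

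Of 6 other CLC genes 2 rose and 4 did not pass as deposited; 1 rose under spike-in scaling, and 2 fell under older-probe scaling. Clcn5, an endosomal chloride-proton exchanger, averaged 3819 ± 321 in KI and 2159 ± 100.0 in WT cells (SD, n = 3 each), a log2 difference of 0.82 (adjusted p = 0.0031 by limma; 0.32 under older-probe scaling). Clcn4 had a difference of 0.30 (adjusted p = 0.023 by limma), which was 0.10 (adjusted p = 0.40) under spike-in scaling and turned to -0.23 (adjusted p = 0.45) under older-probe scaling, and its call also ended without any of WT 2, KI 1, KI 2 or KI 3. Of 16 other bicarbonate and sodium-proton exchangers 2 rose and 14 did not pass as deposited; 2 also rose under each of the spike-in and older-probe scalings, while 4 and 7 fell. The genes that rose as deposited are both exchangers of internal membranes. Slc9a9 averaged 3228 ± 569 in KI and 795 ± 410 in WT cells (log2 difference 2.19, adjusted p = 0.026 by limma), and Slc9a7 averaged 1554 ± 432 in KI and 489 ± 180 in WT cells (1.71, adjusted p = 0.019 by limma; SD, n = 3 each). Neither call held without KI 1 or KI 3, nor that of Slc9a9 without KI 2 or that of Slc9a7 without WT 2.

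Of 6 other genes of creatine kinase activity and creatine supply 1 rose and 1 fell as deposited, and 3 fell under older-probe scaling. Gatm, the enzyme of the first step of creatine synthesis, had a difference of 1.12 (adjusted p = 0.0028 by limma; 0.056 under older-probe scaling). Slc6a8, the creatine transporter, had a difference of -0.55 (adjusted p = 0.037 by limma), and its call ended without any of WT 2, KI 1, KI 2 or KI 3.

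More genes of ruffled border and lysosome traffic rose than fell in the values as deposited. Of 27 measured without Plekhm1, 16 rose, 3 fell and 8 did not pass, with a median difference of 0.41. Of these 27, 0 lay below the level of the filter, and 19.3% of all probe sets above it were higher. The count of rises was 8 without KI 1, 8 without KI 2, 7 without KI 3 and 10 without WT 2, 10 under spike-in scaling and 0 under older-probe scaling, where 1 rose at an unadjusted p under 0.05 by limma. The 4 with the smallest p were Rab7b (0.97, adjusted p = 0.0010 by limma), a GTPase of late endosomes, the autophagy enzyme gene Atg7 (0.79, adjusted p = 0.0021), Plekhm3 (0.62, adjusted p = 0.0023), a relative of Plekhm1, and Rab3d (0.58, adjusted p = 0.0044), a GTPase of secretory vesicles.

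Of 23 V-ATPase subunits and accessory subunits measured, 3 rose and 4 fell, with a median of -0.03, against 1 and 8 with spike-in scaling and 1 and 12 with older-probe scaling. The 4 with the smallest p went both ways. The osteoclast-enriched Atp6v0d2 fell (log2 difference -0.97, adjusted p = 0.0056 by limma), and Atp6v0a1, another form of the membrane a subunit beside that of Tcirg1, rose by more. Atp6v0a1 averaged 675 ± 80.7 in KI and 232 ± 52.9 in WT cells (SD, n = 3 each), a log2 difference of 1.56 (adjusted p = 0.0063 by limma). It also passed at 1.35 under spike-in scaling and 1.03 under older-probe scaling. The call ended in the fit blocked by replicate number. It also ended with the number in each sample's description as a covariate (1.52, adjusted p = 0.053 by limma). Atp6v0d1, the widely expressed counterpart of Atp6v0d2, rose (0.41, adjusted p = 0.018 by limma), but its call ended without KI 1 or KI 3, and it was 0.21 (adjusted p = 0.072) under spike-in scaling and -0.12 (adjusted p = 0.67) under older-probe scaling. Atp6v1d, a stalk subunit, fell (-0.23, adjusted p = 0.022 by limma), and its call ended without any 1 array other than WT 1. Without any 1 of the 6 arrays, 1 to 2 subunits fell, and 1 to 3 rose.

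**Figure D4:**
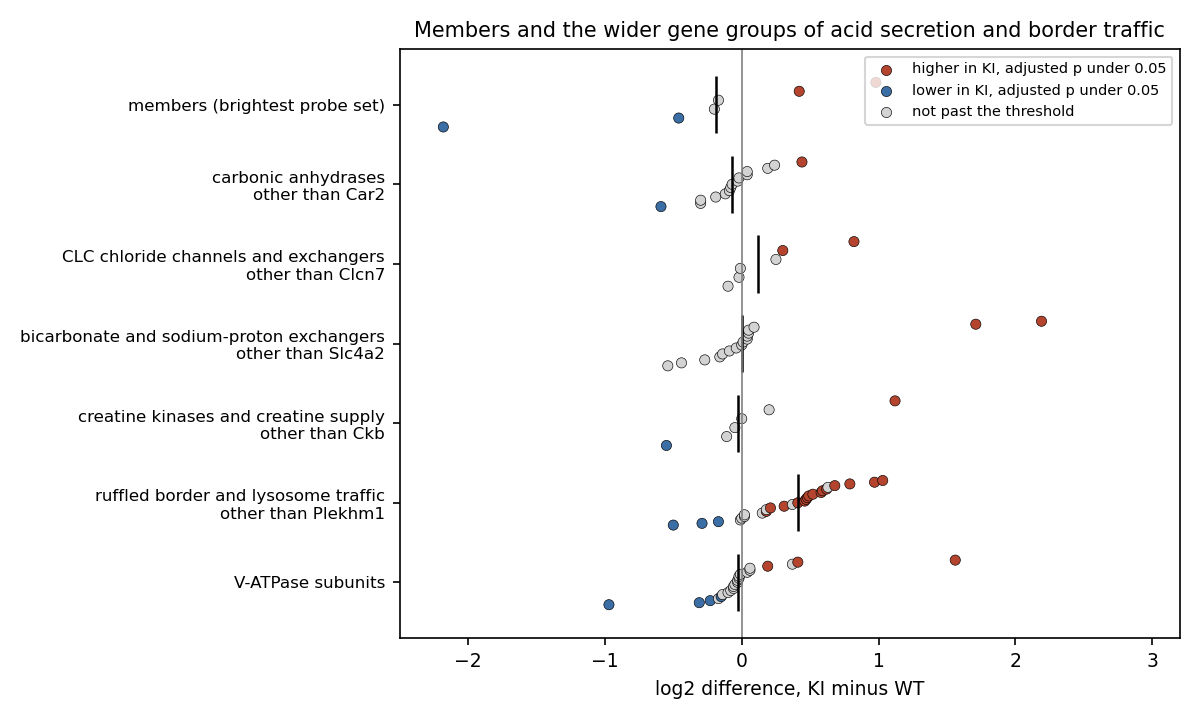
Log2 difference, KI minus WT, of the 6 members (top, brightest probe set) and of each gene of 6 related groups; red points were higher and blue points lower at an adjusted p under 0.05, grey points did not pass, and vertical bars are medians. The traffic group has a median of 0.41, and the other groups lie near 0 with a few genes apart.

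The genes most like each member over the 6 arrays were found by Pearson correlation of log2 intensity with its brightest probe set, as a description over arrays that fall into 2 genotypes. For Car2 they were Rps9 (r = 0.9993), Spring1 (0.9992) and Oxnad1 (0.9992), and 379 genes had r above 0.99. For Plekhm1 they were Abl1 (0.9999), Myo5a (0.9995) and Sh3gl1 (0.9994), for Ostm1 Ctps2 (0.9998), Dennd4c (0.9994) and B3glct (0.9993), and for Slc4a2 Ywhag (0.9998), Etfa (0.9989) and Wbp11 (0.9985). For Clcn7 no gene was above 0.99, and the nearest were Dnajc30 (0.9894), Chchd5 (0.9873) and Pde4b (0.9852). Ckb was most like Kif11 (0.9984), Ckap2l (0.9984) and Fbxo5 (0.9974), genes of the dividing cell, of which none passed the threshold (adjusted p = 0.12 to 0.13 by limma).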

How the data were processed

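Affymetrix mouse expression arrays were hybridised with biotin-labelled RNA primed at the poly(A) tail, per the labels' protocols. The authors deposited 1 linear intensity for each of 45101 probe sets on 6 arrays, made with Affymetrix Expression Console per the submitters' processing notes; no version, algorithm or normalization is given in the sources used here. Array medians of 83.0 to 84.8 were taken as showing that the values were already normalized. The number of arrays limits the precision.

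Leaving aside 64 control probe sets, 34945 of the other 45037 had 1 gene symbol, 932 several and 9160 none, and 34741 matched RefSeq (GRCm38.p6) by gene identifier, used for names. Values under an intensity of 16 were set to 16 before log2, and 22518 probe sets with a mean above the median of all (84.7) were tested with limma 3.58.1 in R 4.3.3 (lmFit, eBayes with trend), adjusted by Benjamini-Hochberg over all of them. The fit of genes took the brightest probe set of each of 18193 genes, without the filter. The steps were tested on simulated data. Named were all members, up to 4 called genes of each group with the smallest p, and the 3 genes most like each member; exceptions are stated. Members, groups, tests and alternatives were chosen with earlier results of these data known. Alternatives were other scalings, filters, priors, array weights, a pseudocount of 32, a replicate block, a covariate (the number that each sample's description carries), 1 mean per gene and leaving out arrays or probe sets.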

Additional observations from a re-analysis of the deposited data

How the results depend on the processing

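Counts of all tested probe sets as deposited were 4345 higher and 5756 lower in KI. They were 2546 and 9011 under spike-in scaling, 728 and 10586 under older-probe scaling, and 2844 and 3637 with the description number as a covariate. With probe sets able to match several transcripts left out they were 3193 and 3820, among fewer tested probe sets. Leaving out 1 array gave 2936 to 4180 higher and 3857 to 5155 lower. The counts of member probe sets, 2 higher and 3 lower, were 1 and 5 under spike-in scaling, 0 (also 0 at an unadjusted p under 0.05 by limma) and 6 under older-probe scaling, 5 lower with array weights, and 2 higher with 2 to 3 lower without 1 array. The counts over the 6 related groups, 25 higher and 9 lower, were 15 and 19, 3 and 37, and 12 and 4 under the 2 scalings and the covariate, 5 lower without WT 1 and KI 1, and 10 to 22 higher with 2 to 6 lower without 1 array. With the replicate number as a block the counts were 2693 and 3491 for all probe sets and 2 and 0 for the groups. Of the group genes, 12 were lower under the block at an unadjusted p under 0.05 by limma. The deviations of same-numbered arrays from their group means correlated at -0.40, -0.29 and -0.30. These values gave no sign of pairing by number, but whether the arrays were paired cannot be told from them. Under that block the dimmest Clcn7 probe set did not pass (adjusted p = 0.084 by limma), nor without the filter (0.080), with the covariate (0.16) or without WT 1 and KI 1 (0.077). The dimmer Plekhm1 probe set, at -0.02, turned to 0.00 with quantile normalization, 0.26 with array weights (adjusted p = 0.037), 0.21 without WT 1 and KI 1, 0.05 without KI 1, 0.01 without KI 2 and 0.14 without WT 1 (-0.14 to 0.14 without 1 array); Ostm1 turned to -0.11 under older-probe scaling. The causes were not tested. The dimmest Clcn7 and the dimmer Plekhm1 probe sets had the lowest mean intensities of the members; how far signal limits them was not tested.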
